A study of Mus musculus with 3 samples.

Results

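Annexins, S100 proteins and galectins are small calcium-regulated or sugar-binding proteins that work at the cell membrane. The genes described here were taken from the deposited expression table by symbol: the annexins (Anxa followed by a number), the S100 genes, the galectins (Lgals followed by a number, which also takes in the galectin-binding glycoprotein Lgals3bp), and the ferlins Dysf and Myof. The table held 39 such genes of 20308, namely 11 annexins, 17 S100 genes, 8 galectins, Lgals3bp and 2 ferlins. RNA came from satellite cells, which are the stem cells of skeletal muscle, of Pax7-ZsGreen mice aged 3 months. This strain carries the green protein ZsGreen as a reporter of Pax7, the transcription factor of satellite cells. Muscles pooled from several animals were digested with collagenase and dispase, and about 200000 ZsGreen-positive cells were sorted per sample. All 3 libraries formed 1 group with no other genotype, treatment or time. Their tissue label reads tibialis anterior, while the series description speaks of hindlimb muscles.

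Annexins bind acidic phospholipids when calcium rises and gather at torn membrane. S100 proteins are EF-hand calcium sensors that act as dimers, several of them by docking on an annexin. Galectins bind galactose-bearing sugars on surface and lysosomal glycoproteins, and ferlins are membrane-anchored calcium sensors of vesicle fusion. Skeletal muscle depends on this machinery because contraction tears its membrane, and loss of dysferlin causes a muscular dystrophy.

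Levels are TPM (transcripts scaled to a common library total), a transcript share corrected for transcript length, so genes can be compared within a library. TPM keeps no read totals, so depth is unknown and no counting interval is given. Means are given ± SD over the 3 libraries (n = 3). Nothing says that the libraries came from separate pools, so p-values rest on the variation among these 3 samples alone and that variation may be technical. The cells carried the satellite cell markers: all 11 listed markers lay above 10 TPM, as did 24.1% of all genes in the table. Their sum was 6938 to 7521 TPM, of which 3915 to 4272 was Sdc4, and Pax7 among them was the basis of the sort. Lists of other cell types summed to 2234 to 2543 TPM (fibro-adipogenic, of which 784 to 992 was Gsn), 1605 to 2928 (endothelial, of which 1356 to 2587 was Fabp4), 247 to 302 (macrophage and other leukocyte), 163 to 252 (Schwann cell), 103 to 202 (muscle fibre), 43.2 to 64.4 (keratinocyte) and 20.4 to 56.7 (neutrophil). Most of the rest of the fibro-adipogenic sum was Col3a1 (585 ± 29.9 TPM) and Dpt (572 ± 16.7 TPM). Low in the same list were Pdgfra (1.72 ± 2.83 TPM), Lum (5.10 ± 4.09 TPM) and Pi16 (4.09 ± 4.49 TPM), named after their values were seen. These were called neither above nor below 1 TPM. Of the 10 genes of that list, 7 were above 1 TPM, beside 38.4% of all genes in the table. All 11 endothelial list genes were above 1 TPM, and 8 were above 10 TPM, beside 38.4% and 24.1% of all genes in the table.

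The 39 genes split into a few very abundant transcripts and many low or undetected ones. Together they held 0.634% ± 0.0384 of all TPM, and 9 genes carried 90.8% of that share. Those 9 were S100a10, Anxa5, Lgals1, Anxa2, Anxa1, S100a11, S100a6, Anxa6 and Anxa11. Annexins summed to 3017 ± 220 TPM, S100 genes to 2400 ± 60.8, galectins to 903 ± 151 and ferlins to 7.30 ± 2.67. Another 9 genes had 0 in every library and stayed outside the test, so 30 entered the level test, which limma ran on log2(TPM + 0.1) over all genes with Benjamini-Hochberg adjustment. Of the 30, 22 lay above 1 TPM, where 60.8% of all tested genes did. Of the 30, 17 lay above 10 TPM (38.2% of all tested genes) and 9 above 100 TPM (9.54%). Counted over the whole table, these were 56.4%, 43.6% and 23.1% of the 39 genes, beside 38.4%, 24.1% and 6.02% of all 20308. Below the levels, 1 lay under 1 TPM (2.18% of all tested genes), 3 under 10 TPM (17.5%) and 19 under 100 TPM (85.1%). The median of the 39 means was 13.3 TPM, against 2.24 TPM over all genes in the table. The genes were chosen as families, so these shares describe them and single nothing out.

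**Figure D1:**
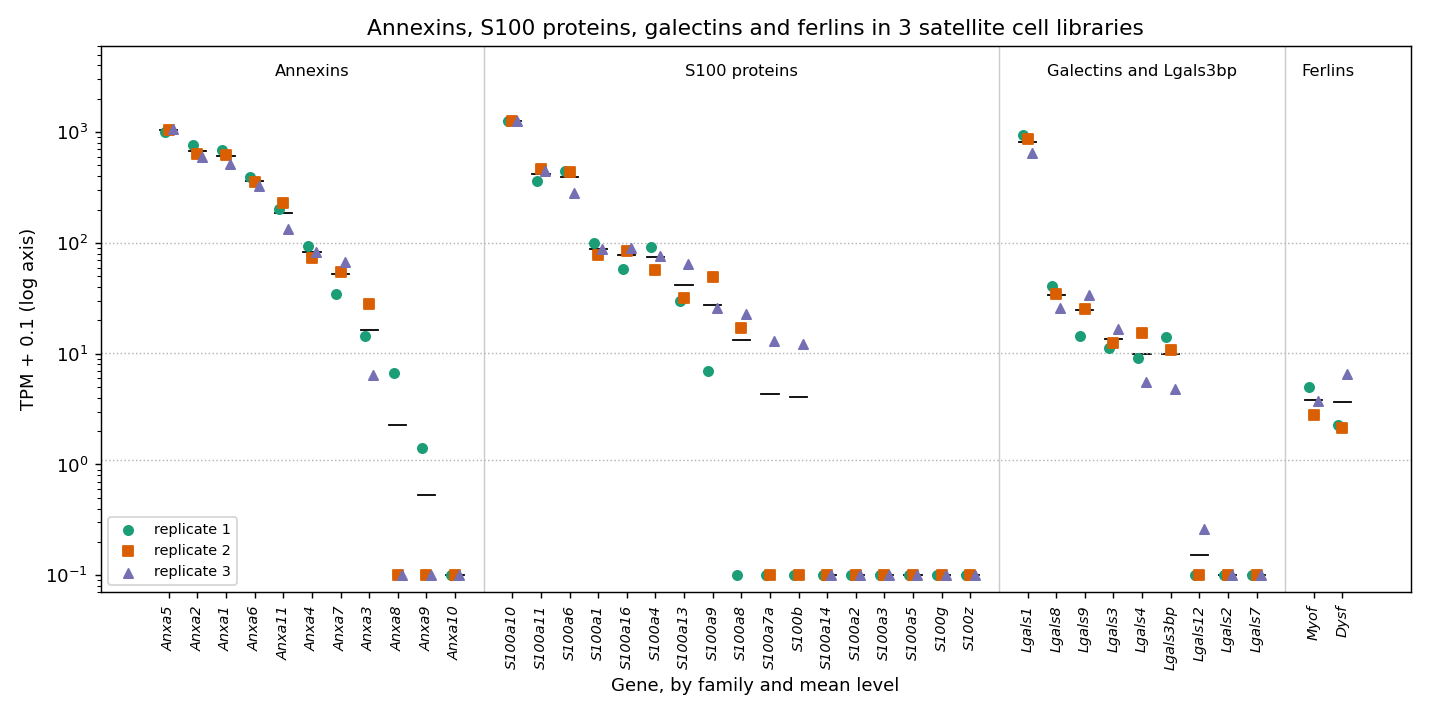
Level of each of the 39 genes in the 3 libraries, as TPM + 0.1 on a log axis, grouped by family; points are libraries, short bars are means, and dotted lines mark 1, 10 and 100 TPM. 5 annexins, 3 S100 genes and 1 galectin sit above 100 TPM in every library, while 9 genes lie at 0 in every library.

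**Figure D2:**
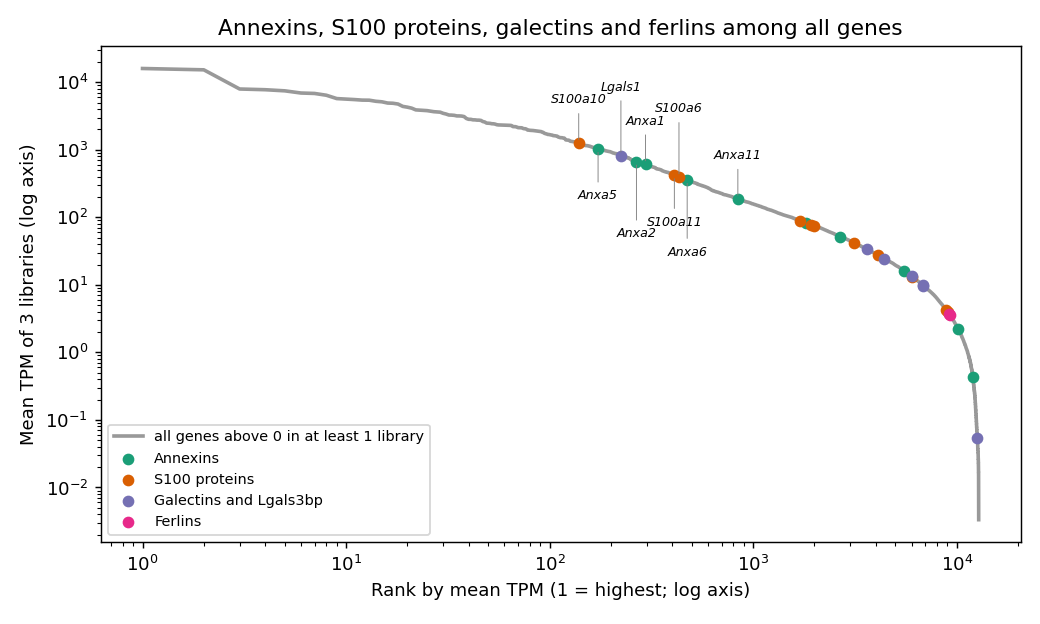
Mean TPM of every gene above 0 in at least 1 library (grey line) against its rank, both on log axes, with the annexins, S100 genes, galectins with Lgals3bp, and ferlins as coloured points. The named points run from S100a10 at rank 139 to Anxa11 at rank 841, and the ferlins Myof and Dysf lie at ranks 9164 and 9280.

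Among annexins, the 4 best known for plugging membrane tears led. Anxa5 (chromosome 3, 36448923 to 36475894, minus strand, GRCm38), which assembles into a lattice on exposed phosphatidylserine, stood at 1003, 1048 and 1058 TPM (replicates 1, 2 and 3, the order used throughout). Anxa2 (chromosome 9, 69453620 to 69491795, plus strand), which bundles membrane and actin, was listed at 773, 641 and 599 TPM. Anxa1 (chromosome 19, 20373428 to 20390944, minus strand), also a mediator that restrains inflammation, was listed at 696, 618 and 510 TPM. Anxa6 (chromosome 11, 54979108 to 55033445, minus strand), whose annexin core is duplicated, was listed at 395, 357 and 327 TPM. The libraries were close for each: the highest was 1.05 times the lowest for Anxa5, 1.29 for Anxa2, 1.36 for Anxa1 and 1.21 for Anxa6. All 4 were above 100 TPM (limma adjusted p = 1.57e-09, 2.62e-08, 6.05e-08 and 4.67e-07). Anxa5 exceeded Anxa6 in 3 of 3 libraries, by 1.53 ± 0.177 on the log2(TPM + 0.1) scale or 2.89-fold. Anxa2 and Anxa1 lay side by side: Anxa2 was higher in 3 of 3 libraries, but by 0.14 ± 0.0891 on that scale.

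Anxa11, a tether of RNA granules to lysosomes, was the fifth annexin above 100 TPM, at 201, 230 and 132 TPM (limma adjusted p = 0.000655). That call was not passed without the variance trend (limma adjusted p = 0.053), and 23.3% of the 31-base words of its longest transcript occur in other annotated genes. Anxa4 (82.8 ± 9.90 TPM) and Anxa7 (52.0 ± 16.5 TPM), which promote membrane aggregation, were above 10 TPM. Anxa3 was listed at 14.4, 27.9 and 6.37 TPM, above 1 TPM but not decided at 10 TPM (limma adjusted p = 0.419; 0.0418 without replicate 3). The epithelial annexins were near or at 0. Anxa8 and Anxa9 had values in replicate 1 alone, at 6.57 and 1.30 TPM, and Anxa10 was listed at 0 in every library. Anxa8 and Anxa9 were below 10 TPM (limma adjusted p = 0.037 and 0.0083), calls lost without replicate 2 or 3, where adjusted p was 0.218 and 0.19 for Anxa8 and 0.199 and 0.19 for Anxa9. The Anxa8 call was also lost with a pseudocount of 0.01 (limma adjusted p = 0.076), with a mean of at least 0.1 TPM (0.0559), with no filter (0.0778) and without the variance trend (0.0978). Without replicate 1 both genes are at 0 and were not tested.

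S100a10 was the highest of all 39 genes and among the steadiest. It encodes the S100 protein that has lost calcium binding and is held by annexin A2 in a heterotetramer. S100a10 (chromosome 3, 93555080 to 93564643, plus strand) was listed at 1265, 1251 and 1252 TPM, ranks 138, 139 and 139 in the libraries. The libraries differed by 1.01 times at most, and the level was above 100 TPM (limma adjusted p = 8.85e-10). S100a11 (chromosome 3, 93520488 to 93526287, plus strand), the partner of annexin A1, was listed at 361, 461 and 443 TPM. Its reads can be divided wrongly, since 48.9% of its 31-base words occur in other annotated genes. S100a6 (chromosome 3, 90612882 to 90624181, plus strand), called calcyclin and a partner of annexin A11, was listed at 448, 440 and 284 TPM, with replicate 3 lowest. Both S100a11 and S100a6 were above 100 TPM (limma adjusted p = 2.79e-07 and 4.62e-06).

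The S100 partner stood above its annexin in 2 of the 3 partner pairs and below it in the other. S100a10 exceeded Anxa2 in 3 of 3 libraries, with a log2 ratio of Anxa2 to S100a10 of -0.91 ± 0.183 (0.531-fold). S100a6 exceeded Anxa11 in 3 of 3 libraries, with a log2 ratio of Anxa11 to S100a6 of -1.06 ± 0.116 (0.479-fold). Anxa1 exceeded S100a11 in 3 of 3 libraries, by 0.52 ± 0.382 or 1.44-fold, with a range from 0.20 in replicate 3 to 0.95 in replicate 1. S100a10 also exceeded S100a11, its neighbour on chromosome 3, by 1.58 ± 0.197 (3.00-fold, 3 of 3 libraries). The exact sign-flip permutation test gave p = 0.25 (two-sided) for each ratio whose sign was the same in all libraries, the smallest value possible with 3 libraries, so none can pass 0.05.

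Upstream sequence is shown for Anxa2 and S100a11, the 2 genes of these families above 0 whose windows held the word TGANTCA, the form bound by AP-1 (the Fos and Jun factors). It was searched in 250 bases before the RefSeq start (GRCm38.p6) on both strands. The word is its own reverse complement apart from its middle base. RefSeq windows were found for 32 of the 39 genes. TGANTCA occurred in 9.38% of these 32 and in 6.87% of 27025 promoters taken 1 per gene. The window of Anxa10, which was listed at 0 in every library, also held the word, with 2 matches. By level, the word occurred in 10% of the windows of 20 genes above 0 in all libraries and in 14.3% of those of 7 genes at 0. Anxa2 is shown from chr9:69453433-69453619 and S100a11 from chr3:93520246-93520487, both on the plus strand, ending before the first annotated transcript start, with TGANTCA matches in capitals.
Anxa2: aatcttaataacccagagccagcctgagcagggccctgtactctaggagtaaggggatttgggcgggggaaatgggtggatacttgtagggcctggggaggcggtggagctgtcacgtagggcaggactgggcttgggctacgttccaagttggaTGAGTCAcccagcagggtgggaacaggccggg
S100a11: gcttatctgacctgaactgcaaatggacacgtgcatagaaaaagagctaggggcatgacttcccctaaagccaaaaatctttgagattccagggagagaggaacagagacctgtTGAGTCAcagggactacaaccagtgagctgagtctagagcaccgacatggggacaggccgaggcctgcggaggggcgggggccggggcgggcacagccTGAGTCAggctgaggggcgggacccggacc
Anxa2 held 1 match and S100a11 held 2, each reading TGAGTCA. A match is a description of the letters, not a bound site. The windows of the 20 genes above 0 in all libraries held a median of 6 CpG dinucleotides, equal to the median over all promoters, and those of 7 genes without signal held 3.

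**Figure D3:**
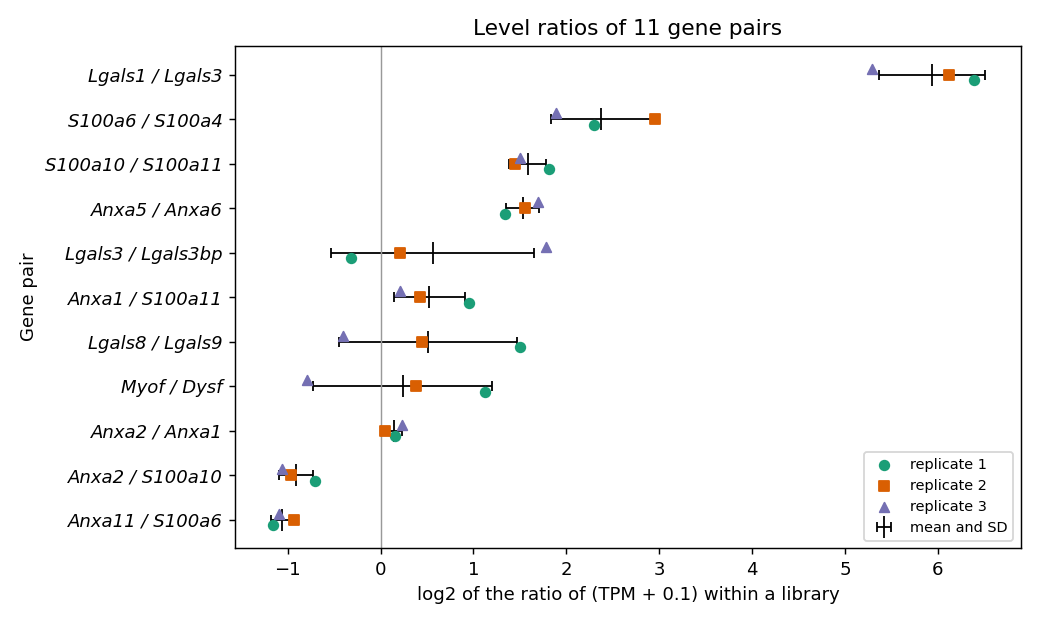
Log2 ratio of (TPM + 0.1) within each library for the 11 gene pairs in which both genes were above 0 in all libraries; points are libraries, and the bar shows the mean and SD. For 8 pairs the 3 libraries share a side of 0, and for Myof / Dysf, Lgals8 / Lgals9 and Lgals3 / Lgals3bp they do not.

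Another 4 S100 genes lay above 10 TPM, at means from 42.0 to 88.7 TPM. S100a1, a regulator of calcium pumps and release channels in heart and muscle, was listed at 99.95, 77.8 and 88.2 TPM. S100a16 was listed at 57.5, 85.1 and 89.7 TPM, and S100a4, a binder of non-muscle myosin, at 91.3, 56.7 and 76.6 TPM. S100a13, which takes part in export of fibroblast growth factor without a signal peptide, was listed at 29.9, 32.0 and 64.1 TPM. Against 10 TPM, limma adjusted p ran from 3.31e-08 to 0.000109. S100a13 was below 100 TPM (limma adjusted p = 0.000872), and S100a1 was not decided there (0.227). S100a16 and S100a4 were also below 100 TPM (limma adjusted p = 0.0445 and 0.0289). Both calls were lost without the variance trend (limma adjusted p = 0.219 and 0.179) and with no filter (0.0865 and 0.0659). That of S100a16 was also lost with a pseudocount of 1 (0.0579) and without replicate 1 (0.3), and that of S100a4 without replicate 2 (0.229). In S100a4, 58.1% of the 31-base words occur in another annotated gene. S100a6 exceeded S100a4 by 2.38 ± 0.538 in 3 of 3 libraries.

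Of the 17 S100 genes, 14 lie on chromosome 3, and neighbours there differed widely. The first 12 start between 90511034 and 90692632, with S100a11 and S100a10 further along. S100a1 (90511034 to 90514392, minus strand) and S100a13 (90514435 to 90524581, plus strand) point away from each other with 42 bases between them, and both had values in every library. Whether the counting used strand is not given in the sources used here, so reads near their starts cannot be told apart by strand. S100a14 (90526856 to 90528837), the next gene, was listed at 0 in every library, while S100a16 (90537254 to 90543151) followed at 77.4 ± 17.4 TPM. S100a3 (90560578 to 90602702) and S100a2 (90590247 to 90591508), which overlap, were listed at 0. S100a4 (90603771 to 90606045) stood at 74.9 ± 17.4 TPM. S100a5 (90608523 to 90611780) was listed at 0, and 1101 bases further lies S100a6 at 391 ± 92.7 TPM. The exons add to 432 bases for S100a5 and 1367 for S100a6.

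The windows upstream of S100a5 and S100a6 are shown because these neighbours were listed at 0 and at the highest level among the first 12 S100 genes of the chromosome. CANNTG, the E-box word bound by Myod1 and its relatives, is in capitals. The word was searched on both strands and occurred in 65.6% of the 32 windows and in 66% of all promoters. S100a5 is shown from chr3:90608272-90608521 and S100a6 from chr3:90612644-90612881, both on the plus strand of GRCm38.p6.
S100a5: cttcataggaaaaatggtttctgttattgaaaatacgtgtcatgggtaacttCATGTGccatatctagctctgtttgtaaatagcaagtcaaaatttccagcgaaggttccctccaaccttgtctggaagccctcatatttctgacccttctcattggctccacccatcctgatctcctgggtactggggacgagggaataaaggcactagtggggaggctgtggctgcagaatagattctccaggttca
S100a6: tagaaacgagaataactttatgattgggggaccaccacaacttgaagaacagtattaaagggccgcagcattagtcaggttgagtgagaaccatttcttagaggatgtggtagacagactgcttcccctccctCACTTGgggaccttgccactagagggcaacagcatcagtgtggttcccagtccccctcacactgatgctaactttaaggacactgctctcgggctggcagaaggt
Each held 1 match, CATGTG in S100a5 and CACTTG in S100a6. Their 250-base windows held the same number of CpG dinucleotides, 3 each.

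**Figure D4:**
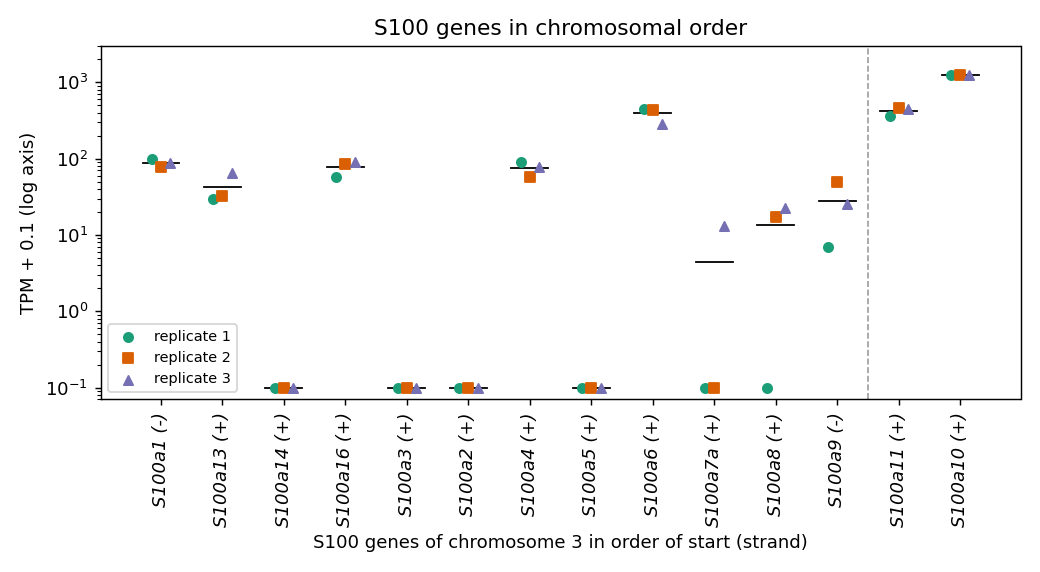
TPM + 0.1 (log axis) in the 3 libraries for the 14 S100 genes of chromosome 3 in order of their start, with the strand in brackets; points are libraries, short bars are means, and the dashed line marks the wide gap before S100a11. Between S100a1 and S100a6, genes with values in every library are interleaved with S100a14, S100a3, S100a2 and S100a5, which lie at 0 in every library.

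The S100 genes best known from other cell types were low and differed most between libraries. S100a8 and S100a9 encode the heterodimer of neutrophils. S100a8 was listed at 0, 17.0 and 22.7 TPM and S100a9 at 6.93, 49.6 and 25.7 TPM, so replicate 1 was lowest for both. S100a9 was above 1 TPM (limma adjusted p = 2.7e-05) and not decided at 10 TPM (0.0951; 2.79e-07 without replicate 1). S100a8 was not decided at 1 TPM (limma adjusted p = 0.402; 3.79e-13 without replicate 1). Neutrophil markers together gave 20.4, 56.7 and 43.0 TPM, lowest in the same library. Of the 11 neutrophil list genes in the table, 1 was above 1 TPM, beside 38.4% of all genes in the table. Csf3r, Elane, Mmp8 and Retnlg were listed at 0 in all libraries. The highest genes of the list were Lcn2 at 0, 22.3 and 18.8 TPM, Cxcr2 at 10.6, 3.07 and 21.8 TPM, and Camp at 0, 23.6 and 0 TPM. The part of neutrophils in the S100a8 and S100a9 levels was not tested. In bulk RNA, fewer cells of a type and less RNA per cell cannot be told apart.

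S100b, the S100 gene of glia, was listed at 0, 0 and 12.02 TPM, above 0 in replicate 3 alone. The Schwann cell list was also highest there, at 163, 189 and 252 TPM, with Pmp22 at 62.8, 74.9 and 122 TPM and Mbp at 48.3, 32.0 and 54.8. The muscle fibre, endothelial and keratinocyte lists were highest in replicate 3 as well, the muscle fibre list only with its highest gene, Tnnc2. Of the 10 genes of the Schwann cell list, 5 were above 1 TPM, beside 38.4% of all genes in the table. Gfap was listed at 0 in all libraries. The part of Schwann cells in the S100b value was not tested. S100a7a, a skin gene, was listed at 0, 0 and 12.8 TPM, also in replicate 3 alone. The keratinocyte list summed to 62.2, 43.2 and 64.4 TPM, mostly Sfn (31.6 ± 10.4 TPM) and Perp (22.1 ± 9.88 TPM). Dsp, next in level, averaged 1.21 ± 1.41 TPM, and Krt1 was listed at 0. The intestinal S100g and the gene S100z, on chromosomes X and 13, were listed at 0 in every library.

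**Figure D5:**
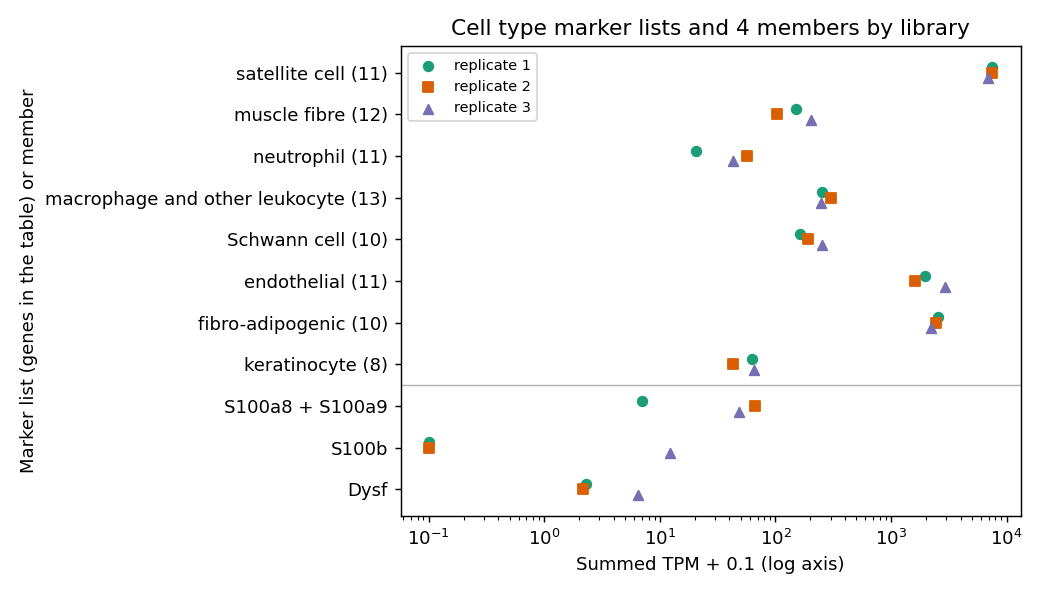
Summed TPM + 0.1 (log axis) of 8 cell type marker lists, with the number of their genes in the table, and the values of S100a8 with S100a9, S100b and Dysf, in each library. S100a8 with S100a9 and the neutrophil list are lowest in replicate 1, and S100b, Dysf and the Schwann cell, muscle fibre, endothelial and keratinocyte lists are highest in replicate 3. The keratinocyte list is nearly as high in replicate 1 (62.2 against 64.4 TPM). The muscle fibre list is highest in replicate 1 when Tnnc2 is left out.

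Lgals1 dominated the galectins. It encodes the prototype galectin, a dimer with known roles in myoblast fusion. Lgals1 (chromosome 15, 78926725 to 78930465, plus strand) was listed at 942, 872 and 649 TPM, above 100 TPM (limma adjusted p = 3.64e-08). Lgals3 (chromosome 14, 47367751 to 47386160, plus strand), the chimeric galectin abundant in macrophages, was listed at 11.2, 12.4 and 16.5 TPM. Lgals1 was 61.2-fold higher, with a log2 ratio of 5.93 ± 0.571, and higher in 3 of 3 libraries. Lgals8 and Lgals9, which carry a pair of sugar-binding domains, lay between them in every library. Lgals8, a sensor of damaged endosomes, was listed at 40.6, 34.6 and 25.6 TPM and Lgals9 at 14.2, 25.4 and 34.1 TPM. Lgals8 was higher in replicates 1 and 2 and lower in replicate 3, so no order between them held across libraries (log2 ratio 0.51 ± 0.958, exact sign-flip permutation p = 0.5). Both were above 10 TPM (limma adjusted p = 0.000138 and 0.00966). For Lgals9 that call was lost without replicate 3 (limma adjusted p = 0.0783) and without the variance trend (0.0705).

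Lgals4, best known from gut epithelium, was listed at 9.04, 15.2 and 5.42 TPM and was above 1 TPM (limma adjusted p = 0.000618). Lgals3bp, the secreted glycoprotein that binds galectins, was listed at 13.9, 10.7 and 4.71 TPM. It lay above Lgals3 in replicate 1 and below it in replicates 2 and 3 (exact sign-flip permutation p = 0.75). Lgals12, the adipocyte galectin, was listed at 0, 0 and 0.16 TPM. It was below 1 TPM (limma adjusted p = 0.0381), which was lost with a pseudocount of 0.01 (0.109) and without replicate 1 (0.515) or 2 (0.54). Without replicate 3 Lgals12 is at 0 and was not tested. Lgals2 and the keratinocyte galectin Lgals7 were listed at 0 in every library.

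Both ferlins were low. Dysf (chromosome 6, 84008590 to 84211060, plus strand), which drives patch fusion in fibres, was listed at 2.19, 2.05 and 6.42 TPM, highest in replicate 3. Myof (chromosome 19, 37899036 to 38043577, minus strand), its relative in myoblast fusion, was listed at 4.88, 2.71 and 3.66 TPM. Neither was decided at 1 TPM (limma adjusted p = 0.227 and 0.122), and Myof was above it without the variance trend (0.0108). Against 10 TPM, Myof was not decided (limma adjusted p = 0.198) and was below it without the variance trend (0.0294). Myof was higher than Dysf in 2 of 3 libraries, with a log2 ratio of 0.24 ± 0.966 (exact sign-flip permutation p = 0.75). The muscle fibre list summed to 149, 103 and 202 TPM, and without its highest gene, Tnnc2, to 142, 86.2 and 125 TPM, so the list was highest in replicate 3 with Tnnc2 and in replicate 1 without it. Tnnc2 stood at 7, 16.3 and 77.2 TPM, Acta1 at 34.6, 17.2 and 34.0 TPM and Atp2a1 at 17.1, 20.3 and 27.2 TPM, and Myh2 was listed at 0. The part of fibre RNA in the Dysf value was not tested.

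Transcripts of genes that act with these families were measured in part. Over all 20308 genes, 38.4% were above 1 TPM and 6.02% above 100 TPM. Of 22 other membrane repair genes in the table, 15 were above 1 TPM and 8 above 100 TPM, with a median of 55.3 TPM and a sum of 3208 to 3644 TPM. Chmp4b, a subunit of the scission complex that sheds damaged membrane, averaged 895 ± 103 TPM. Ahnak, the giant scaffold bound by the pair of annexin A2 and S100a10, averaged 551 ± 16.8 TPM, and Cav1, the caveolar coat protein, 451 ± 95.9 TPM. The muscle genes Cav3 and Capn3, and the ferlins Otof and Fer1l4, were listed at 0 in all libraries. Trim72, the repair ligase of fibres, named after its values were seen, was listed at 0, 0 and 4.09 TPM.

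For the lists that follow, the shares of all 20308 genes are again 38.4% above 1 TPM and 6.02% above 100 TPM. Of 11 galectin ligands and sensors, 9 were above 1 TPM and 4 above 100 TPM, with a median of 26.3 TPM. The highest were the integrin Itgb1 (964 ± 66.3 TPM), the hyaluronan receptor Cd44 (763 ± 81.8 TPM) and the lysosomal Lamp2 (625 ± 97.0 TPM). The adaptor Calcoco2 and the immune receptor Havcr2 were listed at 0. Of 12 S100 and annexin receptors and targets, 8 were above 1 TPM and 2 above 100 TPM, with a median of 29.0 TPM. These were led by the receptor Fgfr1 (939 ± 32.7 TPM), the S100a4 target Myh9 (215 ± 25.6 TPM) and the calcyclin-binding protein Cacybp (87.4 ± 16.4 TPM). Ager, the receptor of extracellular S100 proteins, the annexin A1 receptor Fpr1 and the calcium channel Trpv6 were listed at 0. Of 15 EF-hand sensors outside the S100 family, 11 were above 1 TPM and 6 above 100 TPM, with a median of 47.5 TPM. Calm2 (967 ± 36.5 TPM), a calmodulin gene, lay below S100a10 in level, followed by Calu (661 ± 8.13 TPM) and Rcn1 (166 ± 18.8 TPM). Calb1 and Calb2 were listed at 0.

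The spread between libraries was smaller at higher levels. Of the 28 genes averaging 1 TPM or more, 11 had a highest library at least 2 times the lowest, where 54.4% of all 11318 such genes did. By level, this held for 0 of 9 genes at 100 TPM or more (3.37% of all genes at that level), 5 of 12 between 10 and 100 TPM (40.9%) and 6 of 7 between 1 and 10 TPM (87.1%). The 5 in the middle range were Anxa3, S100a8, S100a9, S100a13 and Lgals9. The shares of these genes lay near those of all genes at the same level. Without replicate 1 the count was 7, and without replicate 3 it was 3. Leaving out a library cannot raise the spread of a gene, so lower counts were largely fixed in advance.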

How the data were processed

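RNA was extracted with a Picopure kit and sequenced as Illumina libraries, per the labels. The authors deposited TPM for 20308 symbols, 1 column per library; the table's name says that mitochondrial genes were removed and TPM renormalised. The submitters' processing notes list mm10, CASAVA 1.8, Bowtie 0.12.9 and RSEM 1.2.3; what each did, the annotation and strand use are unstated in the sources used here. TPM is relative, and a 0 can be a failed estimate, so genes are described as listed at 0.

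Levels were tested on log2(TPM + 0.1), which understates folds of low genes, for the 12822 genes with a value above 0 in any library. limma 3.58.1 (R 4.3.3) fitted an intercept with a variance trend and tested it, two-sided, against 1, 10 and 100 TPM, with Benjamini-Hochberg adjustment over all genes tested (threshold 0.05). The test was tested on simulated data. Pairs (14) were compared within libraries by an exact sign-flip permutation test; 3 pairs with a gene at 0 got no ratio. Positions and 31-base words of the longest transcript are from GENCODE M21 (GRCm38), upstream sequence from RefSeq. Alternatives were other pseudocounts, filters, no variance trend, rescaling by trimmed means of log ratios, and leaving out each library. With a library left out, fits rest on fewer libraries, so their p-values are not comparable in size with the main ones.

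All members, both genes of each pair, the 3 highest genes of each list and list genes at 0 were named by rule, except 1 that is not reported here. Members and lists were chosen with earlier results of these data known.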

Additional observations from a re-analysis of the deposited data

How the results depend on the processing

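No paired analysis was possible because the 3 libraries form 1 group. The numbers of genes above 1, 10 and 100 TPM stayed within 1.5 times the reported values under every alternative, at 22 to 23, 16 to 19 and 8 to 9. Counts below a level moved more. The 1 gene below 1 TPM became 0 with a pseudocount of 0.01, 0 with a mean of at least 0.1 TPM, 10 with no filter, which adds the genes at 0, and 0 to 0 when a replicate was left out. The 3 below 10 TPM became 1 with a mean of at least 0.1 TPM, 11 with no filter and 0 to 0 without 1 replicate. The 11 genes with a 2-fold spread became 5 among genes of at least 10 TPM, where fewer genes are counted, and 3 to 10 without 1 replicate. The spread of a gene cannot rise when a library is left out, so lower counts there were largely fixed in advance. The log2 ratio of Myof to Dysf turned to -0.20 without replicate 1 and lay between -0.20 and 0.75 over the replicates left out. That of Lgals3 to Lgals3bp turned to -0.053 without replicate 3 and lay between -0.053 and 0.998. The cause was not tested. Rescaling shifted the median gene by at most 0.04 (log2). Depth is unknown, so a listed 0 sets no limit.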
